A study of Mus musculus with 4 samples.

Results

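The promoters described here are those of mouse protein-coding genes with a G-quadruplex motif in their DNA. The transcription start site (TSS) of a gene was taken as its 5' end in the GENCODE annotation of mm10, and a promoter was a member when 4 runs of at least 3 guanines, separated by loops of 1 to 7 bases, lay within 500 bp of the TSS on either strand. Of 20807 autosomal protein-coding promoters, 9099 (43.7%) had such a motif and 11708 did not. The rule uses the sequence and the annotation, and no HiChIP count.

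The libraries come from H3K4me3 HiChIP of MLg cells, a line of mouse lung fibroblasts. In this assay, chromatin that is close in space is ligated, fragments carrying trimethylated lysine 4 of histone H3 are precipitated, and both ends of each ligated pair are sequenced. One library was made for each of 4 conditions. All cells were transfected with an antagomiR probe at 60 nM and harvested after 24 h. Control cells received the negative control probe and no TGFB1, and miR-9-LOF cells received the probe against miR-9, which blocks this microRNA (loss of function), without TGFB1. TGFB1 cells received the negative control probe and, for the last 4 h, human recombinant TGFB1 at 5 ng/ml. TGFB1+miR-9-LOF cells received both the probe against miR-9 and the same TGFB1 treatment. Where 4 values are given in a row below, they stand in the order Control, TGFB1, TGFB1+miR-9-LOF, miR-9-LOF, called the library order. The libraries held 15359978, 10864558, 14121095 and 15568047 valid pairs in library order. With 1 library per condition there is no replicate, so a difference between libraries compares those libraries and not the conditions.

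A G-quadruplex is a stack of planar squares of 4 guanines that a guanine-rich strand can fold into in place of the double helix. Such motifs are common close to the TSS of mammalian genes, where GC content is also high. H3K4me3 is laid down at active and poised promoters, mostly at CpG islands, so GC content, CpG density and H3K4me3 are known to go together. A sequence match shows that the letters are present, and not that a G-quadruplex was folded in these cells.

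The sequences below are shown because they are the motifs of the promoters that the values turn on. They are read 5' to 3' on the strand that carries the guanines, from GRCm38, and capitals mark the runs of at least 3 guanines. The first set holds the promoters used as textbook examples of G-quadruplex formation. Myc is a growth-promoting oncogene, Kit is a receptor tyrosine kinase, Vegfa is an angiogenic growth factor and Bcl2 blocks apoptosis. The Myc motif nearest to the TSS lies at chr15:61985340-61985355 on the minus strand, the Kit motif at chr5:75574889-75574907 on the plus strand, the Vegfa motif at chr17:46032424-46032445 on the minus strand and the Bcl2 motif nearest to the TSS at chr1:106714293-106714314 on the plus strand. Each of these 4 lies upstream of its gene.
Myc: GGGcGGGtGGGcGGGG
Kit: GGGcGGGagaaGGGaGGGG
Vegfa: GGGtctGGGcGGGGcttGGGGG
Bcl2: GGGGcGGGaggacGGGccGGGG

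The second set holds promoters that the study examined and promoters of the TGFB1 response. Zdhhc5 (a palmitoyltransferase; chr2:84715214-84715234, plus strand), Ncl (nucleolin, a nucleolar protein that binds G-quadruplexes; chr1:86359522-86359544, plus strand) and Ep300 (a histone acetyltransferase; chr15:81585250-81585271, minus strand) carried a motif upstream of the gene. Prap1, which served the study as a negative control for miR-9 enrichment at promoters, also carried motifs by this rule. The one at chr7:140093775-140093790 on the plus strand is intronic. Col1a1 and Col1a2 encode the chains of collagen type I. The motif of Col1a1 lies upstream of the gene at chr11:94936061-94936078 on the plus strand, and that of Col1a2 shown here, at chr6:4505041-4505055 on the plus strand, is 1 of 4 intronic motifs of this promoter.
Zdhhc5: GGGcgcGGGcgcGGGcgcGGG
Ncl: GGGcGGGGctcttaGGGGcGGGG
Ep300: GGGaggcGGGGcgaGGGcGGGG
Prap1: GGGGaGGGaGGGaGGG
Col1a1: GGGaGGGGGGGcgctGGG
Col1a2: GGGaGGGaGGGaGGG

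The members held 15685 motifs that did not overlap on a strand. The median member had 1 motif, 15.2% of members had 3 or 4, 2.66% had 5 or more, and the most were 10. Motifs were 15 to 52 bases long with a median of 23. The guanines lay on the non-template strand in 54.8% of motifs. Of the motifs, 47.0% had their centre upstream of the TSS, and the 100 bp just upstream held 3026 motifs against 1391 in the 100 bp just downstream. Upstream of the TSS 48.1% of motifs were on the non-template strand, and downstream 60.7%. The 10 motifs of Myom2, which encodes a protein of the muscle M-band, were mostly copies of 1 repeat, GGGaaGGGaaGGGaaGGG, the first of them in an intron at chr8:15057957-15057974 on the minus strand. Tob1, an antiproliferative gene, had 10 motifs of differing sequence.

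GC content went with the motif, which is itself rich in guanine. The median GC content within 500 bp was 60.0% in members and 50.4% in the other promoters, and the observed over expected CpG ratio was 0.702 against 0.341. The share of promoters with a motif was 8.04% below 45% GC, 52.5% between 55 and 60% GC and 88.6% above 70% GC. Any difference between members and all other promoters therefore also compares GC-rich with GC-poor promoters.

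Members had more H3K4me3 HiChIP signal than the other promoters in every library. The signal was counted as pair ends within 2 kb of the TSS and given as CPM, counts per 1000000 autosomal ends of the library. The median member had 6.74, 5.29, 4.05 and 4.27 CPM in library order. The median of promoters without motif was 2.35, 2.40, 2.34 and 2.30 CPM. The ratio of these medians was 2.87, 2.20, 1.73 and 1.85, highest in Control and lowest in TGFB1+miR-9-LOF, while the medians of promoters without motif were nearly level. Their upper quartile was not level, at 8.31, 6.35, 4.53 and 4.98 CPM, against 14.8, 11.1, 7.02 and 8.02 in members. Signal was thus lower outside Control in the upper part of both sets. The groups overlapped widely. In Control the members ran from 2.42 CPM at the lower to 14.8 CPM at the upper quartile, and the promoters without motif from 1.02 to 8.31. In counts, the median member had 198, 110, 109 and 126 ends, and 50, 57, 56 and 39 members had 0, which allows up to 3 ends each.

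Contacts followed the same order. A contact was a pair on 1 chromosome with ends 20 kb to 2 Mb apart, counted at a promoter when 1 end lay within 10 kb of the TSS. It is given as CPM of all autosomal contacts of that span. The median member had 34.6, 31.03, 27.1 and 27.5 CPM of contacts in library order, and the median promoter without motif 21.4, 21.05, 19.8 and 20.01. The share of all ends within 10 kb that belonged to such contacts was close in both sets. Its median was 42.2% in members and 41.4% in the others in Control, and 40.99% and 40.2% in miR-9-LOF. The higher number of contacts came with a higher number of ends at the same promoters.

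The difference in level was smaller between promoters in the same class of GC content, and its direction differed between classes. Below 50% GC the members had the higher medians, at 1.02 CPM against 0.885 in Control below 45% GC and 2.16 against 1.94 between 45 and 50% GC. Members were also richer in GC within each class. Their median GC content was 42.4% against 39.8% below 45% GC, 48.15% against 47.55% between 45 and 50%, and 62.4% against 61.9% between 60 and 65%. The part of this gap in the higher medians below 50% GC was not tested. Between 50 and 55% GC, members had 3.67 CPM in Control and promoters without motif 3.62. Above 55% GC the members had the lower medians. Between 60 and 65% GC the values in Control were 9.53 for 2273 members and 11.3 for 1061 promoters without motif, and in miR-9-LOF 5.35 and 6.23. The CpG ratio moved with this, at 0.741 in those members and 0.786 in those without motif. Its part in the difference was not tested by class of GC content.

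**Figure D1:**
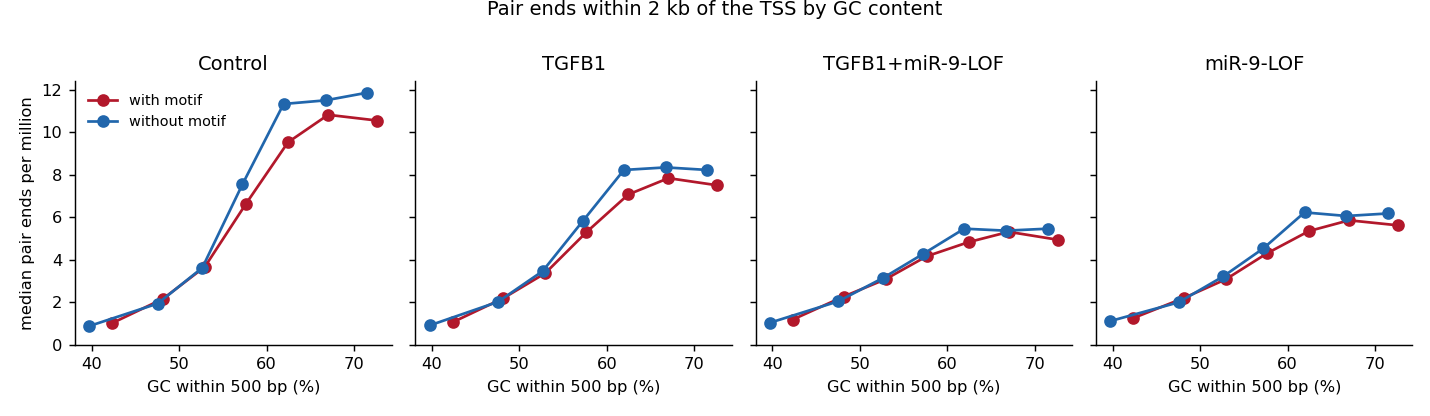
Median pair ends within 2 kb of the TSS in CPM (vertical axis) against GC content within 500 bp (horizontal axis, median of each class of GC content) for promoters with motif (red) and without (blue), 1 panel per library. In each library both lines rise with GC content up to the classes above 60% and then level off, and above 55% GC the members lie at or below the promoters without motif.

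To compare members with promoters of like base composition, each was paired with 1 promoter without motif, on GC content within 2 percentage points and on the number of MboI sites within 2 kb and within 10 kb. This gave 5808 pairs (63.8% of members). Mean GC content was 56.4% in paired members and 56.3% in their partners, and the mean number of MboI sites within 2 kb was 9.66 on both sides. The CpG ratio was not part of the match and differed, with a median of 0.606 in members and 0.652 in partners. Another TSS within 4 kb was also not part of the match, and 18.8% of paired members and 23.8% of partners had one. The 3291 members without a partner had a median GC content of 65.6%, so that the most GC-rich members do not enter the matched comparison.

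In the matched pairs the members no longer had the higher level. The median paired member had 4.90, 4.33, 3.57 and 3.66 CPM in library order and the median partner 5.61, 4.67, 3.72 and 3.93. Over the mean of the 4 libraries, the member had more ends in 49.1% of pairs (95% Wilson interval 47.8 to 50.3). By library the shares were 48.6% (47.3 to 49.9), 48.9% (47.6 to 50.2), 49.1% (47.8 to 50.4) and 48.3% (47.1 to 49.6). The intervals treat pairs as independent and do not cover differences between cultures. With pairs matched also on the CpG ratio, the share over the mean of the 4 libraries was 50.4% (49.1 to 51.7) of 5623 pairs, without promoters that have another TSS within 4 kb it was 50.4%, and with members taken by falling GC content in place of the closest pairs first it was 50.7% (49.5 to 51.9) of 6598 pairs. Other alternatives kept the share below 50%. It was 48.5% (47.2 to 49.8) with GC content matched within 0.5 points and 47.5% (46.2 to 48.8) with ends counted within 1 kb. It was 48.7% with the TSS of the longest transcript and 48.7% for ends of pairs at least 20 kb apart. The side of 50% on which the share fell thus depended on the matching, and no direction is read from it.

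Contacts were balanced in the matched pairs. The member had more contacts in 50% of pairs (48.7 to 51.3) over the mean of the 4 libraries, and in 49.6, 49.4, 50.4 and 49.9% by library. The medians were 31.8 CPM of contacts in paired members and 31.98 in partners in Control, and 26.05 and 25.7 in miR-9-LOF.

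**Figure D2:**
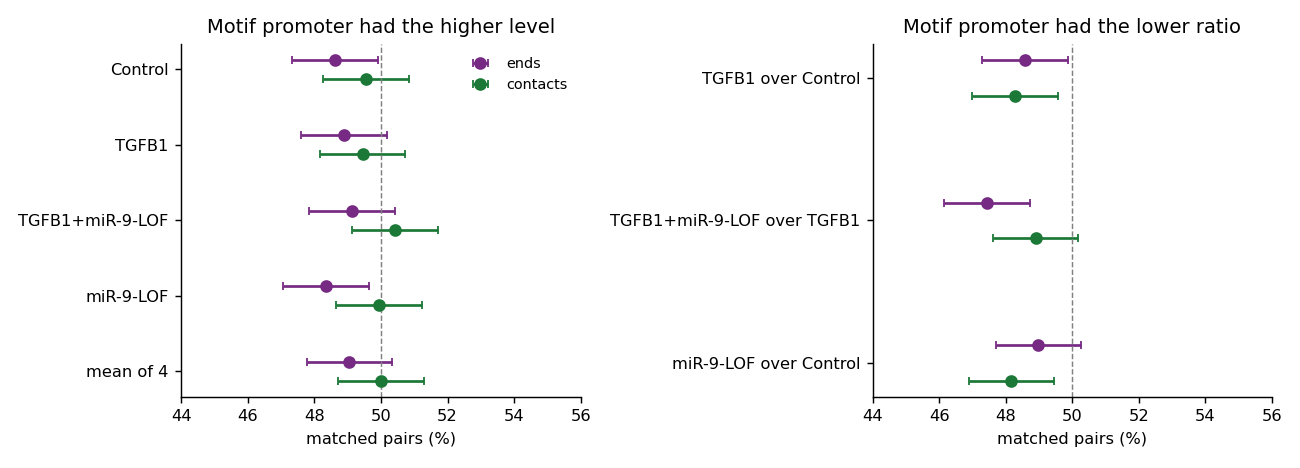
Share of the 5808 matched pairs (horizontal axis, percent, from 44 to 56) in which the motif promoter had the higher level (left, by library and for the mean of 4) or the lower ratio between 2 libraries (right). Points are shares, bars 95% Wilson intervals, purple ends and green contacts, and the broken line marks 50%, from which the shares shown lie less than 3 percentage points away.

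Both sides of the matched pairs had 1 peak of signal at the same place near the TSS. Around the peak the members lay below their partners, and between 1 and 2 kb downstream they lay above them, in each library. Ends peaked 300 bp downstream of the TSS in bins of 200 bp in both sets and in each library. The peak in Control was 5.45 CPM per kb in members and 5.99 in partners, 7.59 and 8.54 times the level 4 to 5 kb away. In TGFB1+miR-9-LOF the peaks were 2.46 and 2.61, or 3.96 and 4.28 times the level 4 to 5 kb away. Of the ends within 5 kb, 47.6% lay within 1 kb in members and 51.2% in partners in Control. The profile was made for this match alone, and no direction is read from its small differences.

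**Figure D3:**
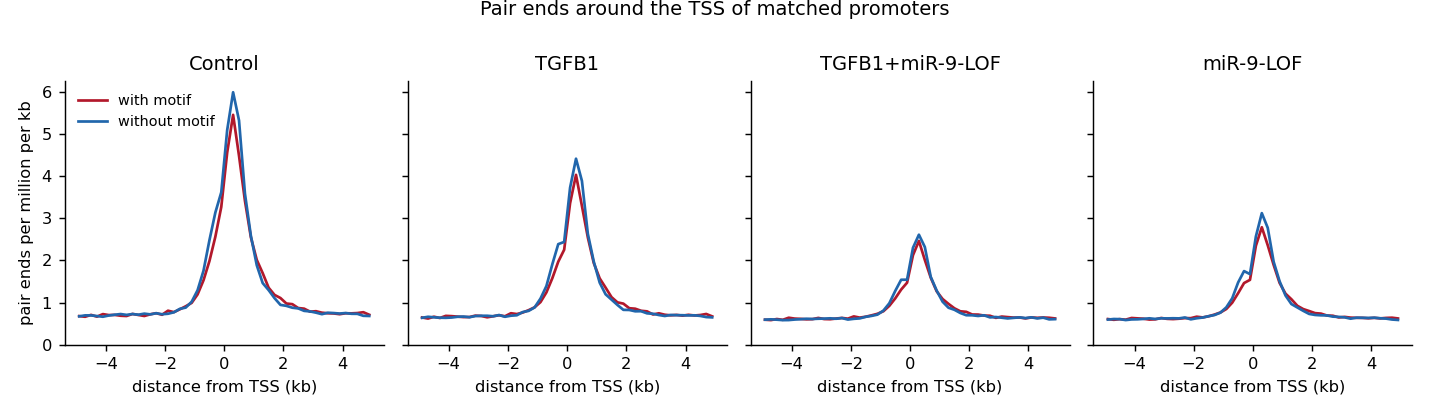
Pair ends in CPM per kb (vertical axis) by distance from the TSS in kb, oriented along the gene (horizontal axis), averaged over the 5808 matched promoters with motif (red) and without (blue), 1 panel per library. Each panel has 1 peak just downstream of the TSS, highest in Control and lowest in TGFB1+miR-9-LOF. The members lie slightly below their partners at the peak and slightly above them between 1 and 2 kb downstream.

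The level of members rose with their number of motifs, and so did GC content. Members with 1 motif (5157) had a median of 5.85 CPM in Control, those with 2 (2320) had 7.13, those with 3 or 4 (1380) had 8.59 and those with 5 or more (242) had 9.61. Their median GC content rose in the same order, from 57.8 to 61.2, 65.03 and 70.1%. Among matched pairs the share did not rise with the number of motifs. The member had more ends in 50.4% (48.8 to 52.0) of 3800 pairs with 1 motif, 46.7% (44.03 to 49.3) of 1365 with 2 motifs, 46.6% (42.6 to 50.7) of 581 with 3 or 4 and 43.5% (31.9 to 55.9) of 62 with 5 or more.

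The place of the motif went with the level at equal GC content. The 3837 members with motifs downstream of the TSS and none upstream had a median of 7.08 CPM in Control, and the 3144 with motifs upstream and none downstream had 5.44. Their GC contents were 58.9 and 58.8%, and their CpG ratios 0.703 and 0.658. In the matched pairs, members with downstream motifs alone had more ends than their partners in 52.0% (50.1 to 53.9) of 2685 pairs and those with upstream motifs alone in 47.3% (45.2 to 49.4) of 2155. Members with motifs on both sides of the TSS, at 64.2% GC, had more ends in 44.7% (41.6 to 47.9) of 968 pairs, below both of these classes. The part of CpG density in this difference was not tested. The strand made a smaller difference: members with template-strand motifs alone had a median of 6.36 CPM in Control and those with non-template motifs alone 6.24. The 1690 members with 4 runs of at least 4 guanines had a median of 7.16 in Control at 61.5% GC. In 44.9% (41.8 to 48.1) of their 966 pairs the member had more ends. The part of the CpG ratio in this share was not tested.

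Whether signal at members moved with TGFB1 or with the block of miR-9 was asked from the log2 ratio of CPM between 2 libraries, in 3 contrasts. The TGFB1 contrast sets TGFB1 against Control. The miR-9 contrast under TGFB1 sets TGFB1+miR-9-LOF against TGFB1. The miR-9 contrast without TGFB1 sets miR-9-LOF against Control. Where 3 values are given in a row below, they stand in this contrast order. The signal at promoters as a whole differed between libraries, with median log2 ratios over all promoters of -0.24, -0.35 and -0.37. The medians of members were -0.32, -0.46 and -0.65, and those of promoters without motif -0.15, -0.22 and -0.14. The ratio was below 0 in 75.99, 78.8 and 79.9% of members and in 61.1, 65 and 61.9% of promoters without motif. The first and the last contrast share the Control library, and the first 2 share TGFB1, so they are not independent of each other.

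These differences in ratio also followed GC content. In the miR-9 contrast without TGFB1 the median was 0.17 in members below 45% GC and was -0.87 in members above 70% GC. Promoters without motif had 0.22 and -0.87 in the same classes. Between 60 and 65% GC, members had medians of -0.36, -0.54 and -0.77 in the 3 contrasts and promoters without motif -0.39, -0.59 and -0.80. GC-rich promoters were also those with more ends. The excess of the peak over the level 4 to 5 kb away, given above for the matched promoters, was highest in Control and lowest in TGFB1+miR-9-LOF, and was not measured by class of GC content. The efficiency of the precipitation cannot be told apart from the condition, since each condition has 1 library.

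**Figure D4:**
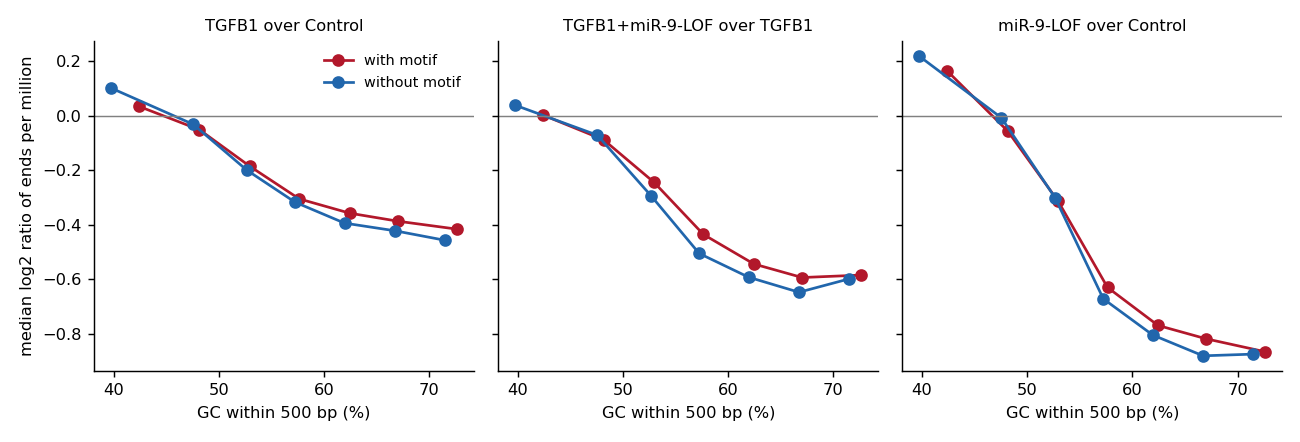
Median log2 ratio of ends in CPM between 2 libraries (vertical axis) against GC content within 500 bp (horizontal axis, percent, median of each class) for promoters with motif (red) and without (blue), 1 panel per contrast. Both lines fall with GC content in each panel, level off above 65% GC, and stay within 0.1 of each other in the classes above 45% GC.

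In matched pairs the member had the lower ratio of ends in 48.6% (47.3 to 49.9), 47.4% (46.1 to 48.7) and 48.98% (47.7 to 50.3) of pairs in contrast order. The median difference within a pair was 0.01, 0.03 and 0.01 on the log2 scale, member minus partner. With the CpG ratio added to the match the shares were 50.8% (49.5 to 52.1), 50.1% (48.8 to 51.4) and 52.1% (50.8 to 53.4), on the other side of 50%. For contacts the shares were 48.3% (46.99 to 49.6), 48.9% (47.6 to 50.2) and 48.2% (46.9 to 49.5) in the same order, and 49.6, 50.1 and 50.1% with the CpG ratio in the match. The 2 matchings thus gave opposite sides of 50% for ends, and no direction is read from them. In the step from miR-9-LOF to TGFB1+miR-9-LOF, which was compared without the CpG ratio in the match, the member had the lower ratio of ends in 46.5% (45.2 to 47.8) of pairs.

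Of the members, 5466 had at least 400 ends over the 4 libraries and were asked for changes past 1.5-fold relative to the median ratio of all 9636 promoters with that number of ends. That median was -0.41, -0.63 and -0.85 in contrast order. In the TGFB1 contrast 122 members (2.23%) were higher and 6 (0.110%) lower, against a background of 2.28% higher and 0.0934% lower among all promoters. In the miR-9 contrast under TGFB1 269 members (4.92%) were higher and 7 (0.128%) lower, against 5.58% and 0.0934%. In the miR-9 contrast without TGFB1 362 members (6.62%) were higher and 24 (0.439%) lower, against 7.67% and 0.467%. Not set relative to the median, 2, 1 and 2 members were higher and 899, 3214 and 4444 lower, so the direction of most calls depended on this scaling. The lower calls were then 16.4, 58.8 and 81.3% of members and 15.4, 58.1 and 79.5% of all promoters. Relative to the median, the shares in members were near or below the background in the higher direction, and the lower direction held 24 members or fewer in each contrast. Among the promoters of the matched pairs with enough ends, 2.89% (2.36 to 3.54), 6.30% (5.50 to 7.21) and 8.68% (7.74 to 9.72) of 3112 members were higher, against 1.95% (1.53 to 2.49), 4.81% (4.12 to 5.60) and 6.76% (5.94 to 7.68) of 3226 partners. The members among these had a median of 896 ends over the 4 libraries and the partners 936, and the part of this depth in the difference was not tested. The CpG ratio was not part of this match, and the shares were not made with it added. No direction is read from them. With at least 800 ends, 1, 7 and 20 members were higher (0.0301, 0.211 and 0.603%, against 0.0353, 0.336 and 0.565% of all promoters), so that most of the higher calls lay at promoters with few ends.

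Promoter bins contacted each other less than the product of their coverages would give, and members more so than the rest. The genome was divided into bins of 10 kb, of which 8335 held a member and 10258 held promoters without motif alone. Contacts between member bins were 0.597, 0.675, 0.742 and 0.698 of the expected number in library order, from 108371, 60219, 51724 and 62979 contacts. Contacts between bins with motif-free promoters were 0.737, 0.824, 0.916 and 0.858 of expected. Counting error at these numbers was below 0.01 on either side for each value. The means over the 4 libraries were 0.678 between member bins and 0.834 between motif-free bins. Restricted to bins above the median coverage, these means were closer, at 0.636 between member bins and 0.669 between motif-free bins. Restricted to the promoters of the matched pairs they were 0.682 and 0.716, and 0.694 between a member and a motif-free bin. The expected number rises with coverage, which was higher in member bins. The part of coverage in the level of the ratio was not tested, and a value below 1 is not read as promoters avoiding each other.

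**Figure D5:**
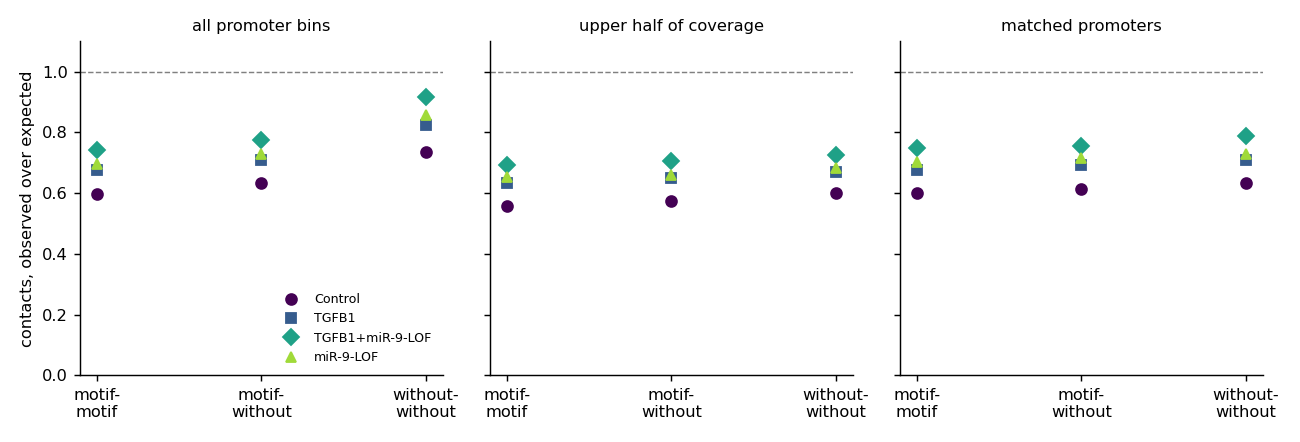
Contacts 20 kb to 2 Mb apart between 2 promoter bins, observed over expected from distance and coverage (vertical axis, linear, from 0), for pairs of bins with a motif promoter, mixed pairs and pairs of bins without motif (horizontal axis). Symbols are the 4 libraries, and panels show all promoter bins, bins of higher coverage and the matched promoters. The step from motif to motif-free pairs is widest in the panel of all promoter bins.

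The textbook list of G-quadruplex promoters held 14 genes, 11 of them members by this rule, and the promoters of Hif1a, Pdgfrb and Tert had no motif within 500 bp of the annotated TSS. Values are CPM within 2 kb of the TSS in library order. Vegfa had 46.2 (95% counting interval in Control 43.74 to 48.69), 35.3, 20.2 and 22.3. Myc had 42.3 (in Control 40.0 to 44.74), 27.9, 15.1 and 17.98. Both were highest in Control and lowest in TGFB1+miR-9-LOF, as was the median of all members.

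Kit, at 2.28, 2.69, 3.01 and 2.13, and Myb, a haematopoietic transcription factor, at 2.65, 2.98, 2.49 and 2.64, were below the median member in each library. Relative to the median ratio, Myc did not pass the exact binomial test in the TGFB1 contrast, at -0.19 with an adjusted p of 0.12, and was lower in the miR-9 contrast without TGFB1, at -0.38 (exact binomial test, adjusted p = 7.11e-06). In the latter contrast Vegfa, at -0.20, and Rb1, a tumour suppressor, at -0.44, were lower relative to the median as well (exact binomial test, adjusted p = 0.019 and 0.028). Among all 9636 promoters tested, 3.62, 10.4 and 26.8% passed this test in contrast order, and among members 3.71, 9.73 and 27.4%. Of the 7 members of this list with at least 400 ends, 0 passed 1.5-fold in any of the 3 contrasts, where 2.28, 5.58 and 7.67% of all promoters were higher, so that a list of this size says little.

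Of the 6 promoters that the study examined, Zdhhc5, Ncl, Ep300, Hdac7 and Prap1 were members and Lzts2 was not. Ncl had 26.3, 17.99, 11.04 and 14.4 CPM in library order. Ep300 had 24.2, 16.3, 10.03 and 12.2, and Zdhhc5 7.995, 6.40, 4.27 and 5.45. Hdac7, a histone deacetylase, had 2.42, 2.16, 2.30 and 2.17 at its annotated 5' end. Prap1, the negative control for miR-9 enrichment, had 2.04, 1.68, 2.49 and 1.59. Ncl, Ep300 and Zdhhc5 followed the order of the library medians, and relative to the median ratio their log2 values lay between -0.16 and 0.30 and did not pass the exact binomial test in any contrast. Hdac7 and Prap1 had under 400 ends and were not tested.

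The 12 promoters of the TGFB1 response held 8 members. Col1a1, the main collagen type I chain, had 20.6, 15.1, 9.40 and 11.75 CPM in library order. Smad7, which inhibits TGFB signalling, had 32.4, 22.1, 13.6 and 11.95.

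Tagln, a marker of smooth muscle and myofibroblasts, had 5.24, 5.96, 3.49 and 4.54 CPM in library order. It was the 1 member of this list past 1.5-fold in the TGFB1 contrast, at a relative log2 value of 0.60 (0.25 to 0.95, two-sided exact binomial test, adjusted p = 0.028). Of all promoters tested, 2.28% were higher past 1.5-fold in that contrast, and 3.62% passed the test. The median ratio of all promoters tested was itself -0.41 there. Tagln had under 800 ends over the 4 libraries, and among members with at least 800 ends 1 was higher in that contrast. In the miR-9 contrast without TGFB1, Tagln was higher relative to the median ratio (0.64, exact binomial test, adjusted p = 0.0020) and Smad7 lower relative to it (-0.59, exact binomial test, adjusted p = 4.07e-09), as was Junb, a transcription factor of the AP-1 family (-0.30, exact binomial test, adjusted p = 0.0061). In this contrast 26.8% of all promoters tested and 27.4% of members passed the same test. The median ratio was -0.85 in it, and in CPM Tagln was lower in miR-9-LOF than in Control. The median relative log2 value of the 8 members was -0.01, -0.13 and -0.14 in contrast order, relative to the median of all promoters tested.

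Of the 13 genes for proteins that bind or unwind G-quadruplexes, 7 were members, among them Ncl, Npm1 and the helicases Pif1, Brip1, Rtel1 and Wrn. None of the 7 passed 1.5-fold in any contrast, against the same shares of all promoters, and their median relative log2 values were -0.07, -0.12 and -0.02. The genes for the helicases Dhx36, Dhx9 and Blm had no motif.

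The promoters of 8 fibroblast markers stood above those of other cell types. Their median was 12.3 CPM in Control, against 3.198 for 5 epithelial, 1.80 for 3 endothelial and 1.43 for 3 leukocyte markers, with 3.64 for all promoters. Among fibroblast markers, Col3a1 (2.38, no motif) and Thy1 (3.198, 1 motif) were below the median of all promoters in Control.

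The members with the most ends were Myh10, a non-muscle myosin heavy chain, with 70.5 CPM in Control, Tmem256 with 62.7 and Tomm6, of the mitochondrial import pore, with 62.9. The windows of Tmem256 and Tomm6 also held the TSS of another gene, 730 and 644 bp away. The members with the most contacts were Myc, with 220.0 CPM of contacts in Control and 114.8 in miR-9-LOF, Maf, a transcription factor, with 188.5 and 97.4, and Midn, which encodes midnolin, with 184.9 and 110.2. The contacts of each were lower in miR-9-LOF than in Control by a larger factor than the median member's, and each also had a ratio of ends below the median of all promoters tested. Myc, Maf and Midn were chosen for contacts summed over the libraries, Control among them. That choice itself favours a high Control value, so these differences are a description.

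The members with the extreme ratios are given as a description, since they were chosen for these values. In the TGFB1 contrast the highest were Krt26, a hair follicle keratin, at a relative log2 value of 1.22 and Lgr6, a receptor of R-spondins, at 1.13. The lowest were Ap4e1, an adaptor complex subunit, at -0.89 and Lrp6, a co-receptor of WNT signalling, at -0.72. In the miR-9 contrast under TGFB1 the highest were the potassium channel gene Kcnj12 at 1.24 and the urate transporter gene Slc2a9 at 1.15, and the lowest were Clstn1 at -0.83 and Hnrnpa3 at -0.75. In the miR-9 contrast without TGFB1 the highest were Krt26 at 1.49 and Il31, a cytokine, at 1.45, and the lowest were the transcription factor gene Atoh8 at -0.82 and the septin gene Sept7 at -0.81. Krt26, Lgr6, Kcnj12, Slc2a9 and Il31 had 413 to 545 ends over the 4 libraries, close to the minimum of 400, as did Ap4e1 among the lowest, with 414. Atoh8 had 2054 ends and 31.8, 24.4, 11.7 and 9.99 CPM in library order.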

How the data were processed

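H3K4me3 HiChIP was analysed in 4 libraries of MLg cells, 1 per condition. According to the labels and the methods, the authors aligned reads to mm10 with HiC-Pro, assigned ends to MboI fragments and removed duplicates. The deposited lists give 1 line per valid pair with the position of each end, from which all counts were made. The mapping quality score of each end, also deposited, was used here only as a filter. Fragment numbers matched the MboI sites of GRCm38 within 1 fragment for at least 99.96% of the ends checked.

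Motifs were read from GRCm38 and TSS from GENCODE M21, with Python 3.11.15, numpy 2.4.6, pandas 2.3.3, pyarrow 21.0.0, scipy 1.17.1 and matplotlib 3.10.9. Motif promoters were paired 1 to 1, closest pairs first, within 2 points of GC content, 2 MboI sites within 2 kb and 5 within 10 kb, and partners on the same chromosome lay more than 24 kb apart. The order of matching was chosen for balance in GC content after the results of both of 2 orders had been seen, and both are given. Log2 ratios used a pseudocount of 0.5. For single promoters, the ends of both libraries of a contrast were set against the split given by the median ratio (exact binomial test, two-sided), and p-values were adjusted by Benjamini-Hochberg over all 9636 promoters with at least 400 ends. A pair with both ends in a window counts as 2 ends (6.25 to 11.1% of ends at members), so these p-values are too small, and an alternative counted each pair once. Intervals and p-values cover counting error only. The procedures were tested on simulated data. Named promoters were the textbook G-quadruplex promoters, those the study examined, the TGFB1 response, G-quadruplex binding proteins, the 3 members with the most motifs, ends and contacts, and the 2 with the highest and lowest ratio in each contrast. The members and lists were chosen with earlier results of these data known. No sequence from chromosome 18 is printed. Some members of the lists are not reported here by name.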

Additional observations from a re-analysis of the deposited data

Results flagged for a closer look

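For 2 of the 45 named members with at least 400 ends, the step from no TGFB1 to TGFB1 went opposite ways without and with the probe against miR-9, by more than counting error on each side. Relative to the median ratio, Clstn1 was at 0.28 for TGFB1 over Control and at -0.44 for TGFB1+miR-9-LOF over miR-9-LOF. Sept7 was at -0.44 and 0.37. Both promoters were named for an extreme ratio of 2 of these libraries, 1 from each step: Clstn1 for a low TGFB1+miR-9-LOF value against TGFB1, and Sept7 for a low miR-9-LOF value against Control. That choice itself favours the opposite signs, so they are no evidence of a difference. Over all promoters with at least 400 ends, 57 of 9636 (0.592%) met the same condition, and 35 of 5466 members (0.640%). The difference itself was not tested, and each condition has 1 library.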

How the results depend on the processing

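Shares of matched pairs lay between 44.6 and 52.1% under the alternatives, and the cause was not tested. The side of 50% depended on the alternatives, except for the lower contact ratio in the TGFB1 contrast. That share was between 47.6 and 49.6% under them. More ends at the member: 47.5% with narrower windows (1 kb, contacts 5 kb), 50.4% with the CpG ratio in the match, 50.4% without promoters that have another TSS within 4 kb, 44.6% with runs of at least 4 guanines and 50.7% with members matched by falling GC content, an order added after seeing the data, which gave 51.4% for contacts and left a GC difference of 57.4 to 55.9%. Lower end ratio, in contrast order (TGFB1 contrast, miR-9 contrast under TGFB1, miR-9 contrast without TGFB1): 50.8, 50.1 and 52.1% with the CpG ratio in the match and 49.97, 49.8 and 50.4% by falling GC content. For the last of these contrasts it was 50.3% with pairs matched on level and 50.3% without shared windows. With runs of at least 4 guanines it was 45.4% in the miR-9 contrast under TGFB1 and 47.0% in the miR-9 contrast without TGFB1. The match for runs of at least 4 guanines left a median CpG ratio of 0.634 in members and 0.732 in partners. Lower contact ratio: 49.6% in the TGFB1 contrast and 50.1% in the miR-9 contrast without TGFB1 with the CpG ratio in the match, and 50.3% in the miR-9 contrast under TGFB1 without shared windows.

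Counts past 1.5-fold moved with the scaling and the minimum. Members higher, in the same order of contrasts: 12, 50 and 47 with narrower windows, 2, 1 and 2 when not relative to the median, 731, 923 and 1012 with no minimum of ends, 1, 7 and 20 with at least 800 ends, and 45, 116 and 155 with libraries thinned to the smallest. Members lower: 899, 3214 and 4444 when not relative to the median, 153, 414 and 2180 with no minimum, and 0, 3 and 9 with at least 800 ends. With no minimum, 8.03, 10.1 and 11.1% of members were higher against 13.7, 15.6 and 19.5% of all promoters, and 1.68, 4.55 and 23.96% lower against 2.29, 3.95 and 17.1%. With narrower windows the higher shares were 0.286, 1.19 and 1.12% against 0.274, 1.17 and 1.38%, and after thinning 0.956, 2.46 and 3.29% against 0.976, 2.73 and 3.49%. In the TGFB1 contrast 3 members (0.059%, against 0.089% of all promoters) were lower at a mapping quality of at least 30. After thinning 1 was lower there (0.021%, against 0.037%). In the miR-9 contrast under TGFB1 13 were lower with narrower windows (0.31%, against 0.19%). With at least 800 ends the lower shares were 0, 0.090 and 0.27%, against 0, 0.071 and 0.21%. Counting each pair once, added after seeing the data, left 31 of 129 exact binomial tests of named members at an adjusted p below 0.05, against 37 of 135. By contrast the latter were 8, 9 and 20 of 45, where 3.62, 10.4 and 26.8% of all promoters passed, and the named members include those chosen for extreme ratios. Kcnj12 and Slc2a9, with 2 such tests each, fell below the minimum of 400 and were not tested, and those of Myh10 in the miR-9 contrast under TGFB1 and Tomm6 in the miR-9 contrast without TGFB1 no longer passed. Contacts between member bins stayed between 0.636 and 0.697 of expected under the 4 alternatives. Those between motif-free bins ranged from 0.669, in bins of higher coverage, to 0.9295, with bins of 20 kb, so the gap between the 2 depended on the setting. No paired analysis was possible because each condition has 1 library.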

Other observations

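Gene families differed in how often their promoters carried a motif, and GC content differed with it. Of 1128 olfactory receptor promoters 5.67% were members, at a median GC content of 36.4%, and of 327 vomeronasal receptor promoters 2.45%. Collagen genes were at the other end, with 29 of 42 promoters (69.0%) at 55.99% GC, followed by Hox genes (24 of 39) and potassium channel genes (53 of 91). Histone genes had a motif in 8 of 67 promoters although their median GC content was 53.7%, and ribosomal protein genes in 24 of 79 at 56.7%. Over the mean of the 4 libraries, the median collagen promoter with a motif had 4.01 CPM and the median without 1.84, and the median ribosomal protein promoter 11.4 with and 8.32 without. For histone genes these medians were 1.84 and 1.85 CPM, and for olfactory receptors 0.940 and 0.886. These are descriptions of families chosen with results of these data known, and no difference between them was tested.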
